A study of Mus musculus with 6 samples.

Results

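Claudins and other junction genes were followed across the cell classes of the mouse ileal crypt. The 10 genes, chosen by symbol from the 32285 genes listed, were the claudins Cldn2, Cldn3, Cldn4, Cldn7 and Cldn15, the tight junction genes Ocln, Tjp1 and Cgn, and the adhesion genes Cdh1 and Epcam. Their transcripts were counted by single-cell RNA sequencing of EpCAM-sorted crypt epithelial cells from 3 Fpr2f/f and 3 Fpr2VKO libraries. Fpr2f/f mice, labelled WT, carried floxed alleles of Fpr2, the gene for formyl peptide receptor 2. Fpr2VKO mice carried the same floxed alleles with Cre under the Villin promoter, which is active in intestinal epithelial cells, and were labelled as an intestinal epithelial knockout. The mice were on the C57BL/6J background. The study compared both genotypes to learn how epithelial FPR2 acts on stem cell proliferation and differentiation.

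Tight junctions seal the space between neighbouring epithelial cells and set which ions and solutes pass between them. Claudins are the membrane proteins that form the strands: claudin-2 and claudin-15 form channels for cations, claudin-3 and claudin-4 are counted among the sealing claudins, and claudin-7 is found mainly along the lateral and basal membrane. Occludin (Ocln) is a further strand protein. ZO-1 (Tjp1) and cingulin (Cgn) lie in the plaque below the membrane and tie the strands to the actin cytoskeleton, E-cadherin (Cdh1) holds the adherens junction together, and EpCAM is a surface adhesion protein that binds claudin-7.

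Positions are those of the GRCm38 annotation. Cldn2 lay at chrX:139800828-139811386 on the plus strand, as did Cldn7 (chr11:69964779-69967885), Cdh1 (chr8:106603351-106670246) and Epcam (chr17:87635979-87651129). Tjp1 (chr7:65296165-65527781), Ocln (chr13:100496507-100552718) and Cgn (chr3:94760069-94786492) lay on the minus strand. The other claudins lay on chromosome 5: Cldn4 at chr5:134945119-134946934 on the minus strand, Cldn3 at chr5:134986214-134987472 on the plus strand, and Cldn15 at chr5:136966616-136975858 on the plus strand. Cldn3 shared 40 exonic bases with the antisense gene Wbscr25, which held 912 UMIs in all epithelial cells. Whether the counting used strand was not stated in the sources used here.

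Promoter windows from RefSeq (GRCm38.p6, from 250 bases before to 50 after the start) were found for 9 of the 10 genes. The windows of the 3 claudins whose levels differed most between classes are printed 5′ to 3′. Capitals mark TATAAA (the TATA box motif), GGGCGG (GC box), TTTATG (a core bound by CDX factors) and the AP-1 site (TGACTCA or TGAGTCA here, with any middle base allowed, bound by dimers of Jun and Fos proteins), searched on both strands, so that a GC box on the other strand reads CCGCCC. These letters occur in 13.6%, 35.6%, 11.9% and 7.81% of 32817 promoter windows of the same length. The AP-1 site was added to the search after the promoter letters had been seen.
Cldn2, chrX:139800558-139800857, plus strand: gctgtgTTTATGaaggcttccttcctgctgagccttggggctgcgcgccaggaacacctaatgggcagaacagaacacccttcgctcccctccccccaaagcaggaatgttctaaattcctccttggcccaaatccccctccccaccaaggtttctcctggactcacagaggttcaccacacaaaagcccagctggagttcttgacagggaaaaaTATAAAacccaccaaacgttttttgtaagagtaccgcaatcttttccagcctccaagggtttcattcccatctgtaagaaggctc
Cldn4, chr5:134946885-134947184, minus strand: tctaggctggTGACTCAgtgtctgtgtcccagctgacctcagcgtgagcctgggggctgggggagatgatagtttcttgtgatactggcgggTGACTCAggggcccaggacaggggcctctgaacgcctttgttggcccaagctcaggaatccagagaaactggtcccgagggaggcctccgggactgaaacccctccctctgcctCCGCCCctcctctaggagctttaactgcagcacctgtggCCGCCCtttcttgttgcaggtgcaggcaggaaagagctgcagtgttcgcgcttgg
Cldn15, chr5:136967619-136967918, plus strand: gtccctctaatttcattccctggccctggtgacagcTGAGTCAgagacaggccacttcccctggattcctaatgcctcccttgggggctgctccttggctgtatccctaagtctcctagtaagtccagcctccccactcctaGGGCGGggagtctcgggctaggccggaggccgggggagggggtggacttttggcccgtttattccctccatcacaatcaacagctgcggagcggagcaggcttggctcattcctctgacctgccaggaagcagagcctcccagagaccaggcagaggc
Cldn2 had the only TATA box among the windows of the group, starting 35 bases before the start, and no GC box. Cldn4 had 2 GC boxes and 2 AP-1 sites, and Cldn15 had 1 of each. Of the remaining windows, none held an AP-1 site. The letters AGATAA, bound by GATA factors, and CTTTGA, a TCF/LEF core, present in 11.2% and 16.0% of windows, were in none of the group.

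The libraries held 90142126 to 189516114 UMIs (unique molecular identifiers, each marking 1 captured transcript). Limits on UMIs, genes and mitochondrial transcripts left 1868 to 4722 barcodes a library. Of the barcodes that passed the other limits, the mitochondrial limit took out 78.0%, 65.7% and 70.9% (Fpr2f/f) and 90.1%, 76.1% and 85.6% (Fpr2VKO). After removal of doublets, 16378 epithelial cells remained, 9767 from Fpr2f/f and 6611 from Fpr2VKO mice. Clusters, made without any junction gene, were named from marker lists: 646 stem-like, 1981 transit-amplifying (TA)-like, 1066 enterocyte-like, 958 Paneth-like, 1713 goblet-like, 441 enteroendocrine-like and 324 tuft-like cells, with 9249 cells left unnamed. Stem-like cells made up 2.16% ± 0.584 of the epithelial cells of Fpr2f/f libraries and 6.6% ± 1.58 of those of Fpr2VKO libraries (SD, n = 3). The mean share of every other named class was also higher in Fpr2VKO, for goblet-like, enteroendocrine-like and tuft-like cells within its spread. Unnamed cells made up 61.77% ± 5.37 (Fpr2f/f) and 46.98% ± 4.92 (Fpr2VKO). Library medians of the barcodes left were 3033, 4602 and 4612 UMIs (Fpr2f/f) and 6358, 6728.5 and 6686.5 UMIs (Fpr2VKO). Those of stem-like cells, the reference of the class comparisons, ran from 23468 to 38271 UMIs. Enterocyte-like cells had 20563 to 31970, Paneth-like 7151 to 45853.5 and enteroendocrine-like 6735.5 to 17249. TA-like cells had 5768 to 8015.5, goblet-like 2382 to 5025 and tuft-like 1776 to 3435. The part of depth or of the mitochondrial limit in the class shares was not tested. No UMI of Fpr2 was found in epithelial cells of any library, Fpr2f/f included, which allows a level of up to 0.0612 to 0.118 CPM, so the deletion could not be checked. At most 1.0% of the cell barcodes of a library were shared with another. Pairs among the libraries numbered 1 and 2, of both groups, shared 8 to 23 barcodes, where a random draw would give 2.54 to 5.54. The 2 libraries numbered 3 shared 9 against 2.25. Pairs of a library numbered 3 with another number shared 0 to 4, against 1.79 to 5.68. The reason was not tested.

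Cldn2 was highest in stem-like cells and lower in every other named class. Levels are given in CPM, the UMIs of a gene scaled to 1 common total for each sum of a library and class, on the TMM scale, which sets the typical gene equal between sums. In stem-like cells Cldn2 stood at 116, 85.3 and 110 (Fpr2f/f) and at 108, 104 and 113 (Fpr2VKO), a mean of 106 ± 11.1 (SD, n = 6). TA-like cells followed at 70.7 ± 2.91 and Paneth-like cells at 61.8 ± 9.29, whose ranges overlapped, but without TMM scaling Paneth-like cells held 18.5 ± 5.11 CPM against 92.3 ± 4.74 in TA-like and 23.9 ± 4.11 in enterocyte-like cells. Stem-like and TA-like ranges did not overlap. Enterocyte-like (22.9 ± 3.13), enteroendocrine-like (19.0 ± 11.3) and tuft-like cells (15.8 ± 13.7) were not separated beyond their spread. Goblet-like cells had the lowest mean, 8.69 ± 2.94, in a range that overlapped with that of tuft-like cells.

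Against stem-like cells the log2 difference of Cldn2 was -0.57 ± 0.11 (SE) in TA-like, -0.79 ± 0.14 in Paneth-like, -2.21 ± 0.13 in enterocyte-like, -2.38 ± 0.17 in enteroendocrine-like, -2.64 ± 0.30 in tuft-like and -3.68 ± 0.17 in goblet-like cells. All these calls passed the test (edgeR quasi-likelihood, adjusted p from 4.0e-23 to 5.6e-05), with both scalings tried. The TA-like call was lost in 3 of the alternatives. Without TMM scaling the levels in goblet-like (9.17 ± 3.15 CPM), Paneth-like (18.5 ± 5.11) and tuft-like cells (20.8 ± 18.7) lay below the 23.2 ± 4.27 in barcodes under 100 UMIs, which hold free RNA, and those in enterocyte-like (23.9 ± 4.11) and enteroendocrine-like cells (27.9 ± 15.7) were within their spread of it.

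Cldn15, the other channel-forming claudin, had its highest level in enterocyte-like cells. There it stood at 223, 209 and 205 (Fpr2f/f) and 287, 230 and 214 (Fpr2VKO), against 94 ± 17.1 in stem-like cells on the TMM scale (SD, n = 6). The ranges of enterocyte-like and goblet-like cells (145 ± 20.5) did not overlap, while neighbours from goblet-like down to tuft-like cells did. Enteroendocrine-like cells had 12.7 ± 6.03. Relative to stem-like cells the log2 difference was 1.29 ± 0.08 in enterocyte-like cells (adjusted p = 4.4e-23) and -2.90 ± 0.15 in enteroendocrine-like cells (adjusted p = 1.7e-27), both from edgeR. Without TMM scaling, enteroendocrine-like cells held 18.9 ± 9.07 CPM of Cldn15, no more than the 24.6 ± 15.7 in immune-like cells of the same libraries.

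**Figure D1:**
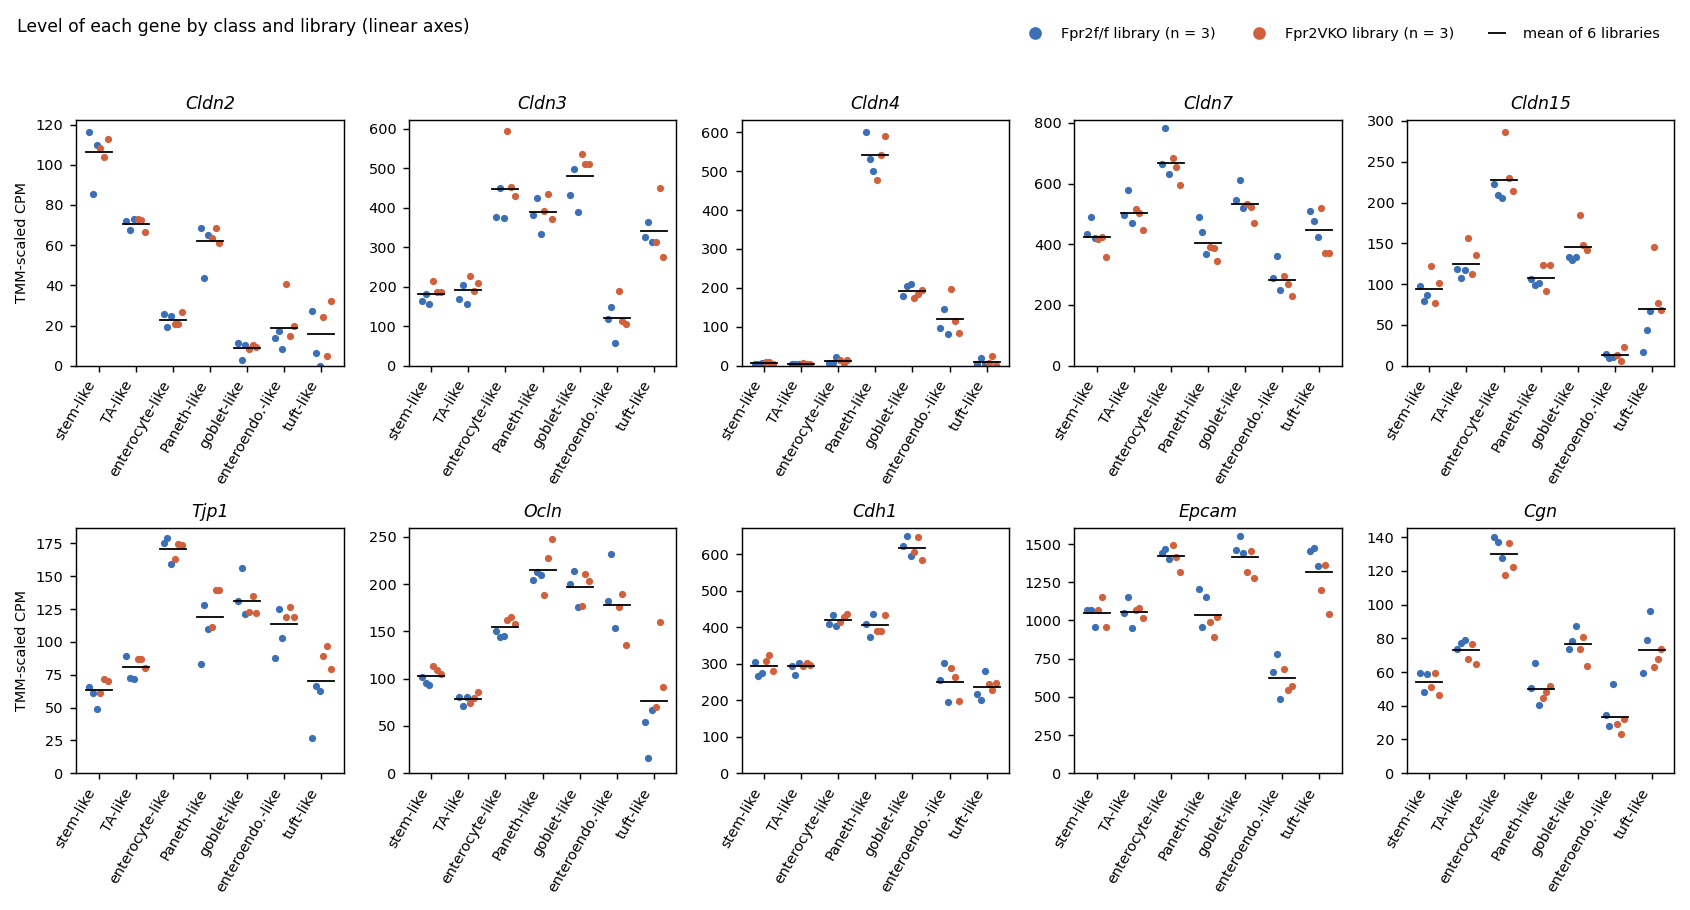
TMM-scaled CPM (y axis, linear, from 0) of the 10 genes in the 7 named classes (x axis); each point is 1 library, blue for Fpr2f/f and orange for Fpr2VKO, and the bar is the mean of 6 libraries. Cldn2 is highest in stem-like cells at 106, Cldn4 is near 0 in 4 classes and at 540 in Paneth-like cells, and Cldn15 is highest in enterocyte-like cells at 228.

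Cldn4 was higher in the Paneth-like, goblet-like and enteroendocrine-like classes than in the other named classes. Paneth-like cells held 602, 531 and 501 TMM-scaled CPM (Fpr2f/f) and 477, 542 and 590 (Fpr2VKO), goblet-like cells 192 ± 14.7 and enteroendocrine-like cells 120 ± 44.9 (SD, n = 6). The lowest enteroendocrine-like library stood at 80.8, and no library of the enterocyte-like, tuft-like, stem-like or TA-like cells exceeded 24.2. Within the enterocyte-like class, a cluster of 39 cells, 20 of them from Fpr2f/f replicate 3, held 445 CPM without TMM scaling. Outside the named classes, an unnamed cluster of 1063 cells, 566 of them from Fpr2f/f replicate 2, held 222. This cluster scored highest on the enterocyte markers (mean log2 fold 0.834). It stayed unnamed because none of them was among its 10 leading genes, a condition of the naming rule. Stem-like cells had 6.37 ± 2.79 and TA-like cells 4.79 ± 0.977. Tuft-like cells, often grouped with the secretory lineage, had 10.5 ± 8.87 and rested on 1 to 6 UMIs a library. Without TMM scaling Paneth-like cells, at 161 ± 35.9 CPM, stood below goblet-like cells at 201 ± 13.4.

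Compared with stem-like cells, Cldn4 was higher by 6.24 ± 0.22 on the log2 scale in Paneth-like cells (4.16 when scaled by total UMIs), by 4.75 ± 0.23 in goblet-like cells and by 4.12 ± 0.26 in enteroendocrine-like cells (SE; edgeR adjusted p = 7.1e-22, 2.2e-18 and 1.6e-15). The other 3 classes did not pass the test, with adjusted p = 0.0535 in enterocyte-like, 0.206 in TA-like and 0.688 in tuft-like cells. The enterocyte-like result depended on the processing: it was called higher under 9 of 18 alternatives, among them DESeq2 (0.71) and leaving out Fpr2VKO replicate 2 (1.17). Another was the naming rule without the condition on leading genes (2.06, edgeR adjusted p = 1.0e-05). The log2 difference ranged from -0.65 to 3.16. In TA-like cells it was called lower under 3 of 18 alternatives, the strongest without alignment (-1.54, adjusted p = 0.0011), and higher under 1, the 40% mitochondrial limit (0.62, adjusted p = 0.034). Unscaled, the 8.0 ± 3.27 CPM of stem-like cells were close to the 5.34 ± 6.33 of immune-like cells and below the 52.8 ± 16.0 of free RNA. In enterocyte-like, TA-like and tuft-like cells, too, the unscaled mean lay below that of free RNA.

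Cldn3 and Cldn7 were spread more evenly. Cldn3 was highest in goblet-like (480 ± 56.7), enterocyte-like (447 ± 80.6), Paneth-like (390 ± 37.2) and tuft-like cells (340 ± 61.0), whose neighbouring ranges overlapped (Paneth-like cells were lowest, at 114 ± 14.9 CPM, without TMM scaling), and stood at 182 ± 20.3 in stem-like and 122 ± 44.2 in enteroendocrine-like cells. Its log2 difference from stem-like cells was 1.40 ± 0.09 in goblet-like and 1.29 ± 0.09 in enterocyte-like cells (edgeR adjusted p = 3.7e-23 and 1.2e-21). Cldn7 ranged from 282 ± 45.1 in enteroendocrine-like to 669 ± 62.9 in enterocyte-like cells, while without TMM scaling Paneth-like cells were lowest at 120 ± 32.3 CPM. In enterocyte-like cells it was higher than in stem-like cells by 0.66 ± 0.07, and in enteroendocrine-like cells it was lower, by -0.59 ± 0.07 (adjusted p = 7.7e-14 and 3.1e-11).

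Occludin transcripts were highest in Paneth-like, goblet-like and enteroendocrine-like cells, at 215 ± 20.7, 197 ± 16.6 and 178 ± 33.0, which overlapped from one to the next, while without TMM scaling enteroendocrine-like cells were highest at 265 ± 44.1 CPM and Paneth-like cells lowest at 63.5 ± 10.6. Stem-like cells had 103 ± 7.83 and TA-like cells 78.6 ± 5.19. Ocln was higher than in stem-like cells by 0.93 ± 0.10 on the log2 scale in goblet-like and by 0.81 ± 0.11 in enteroendocrine-like cells, and lower in TA-like cells by -0.39 ± 0.10 (edgeR adjusted p = 5.7e-11, 1.2e-08 and 0.0015). With the 10% mitochondrial limit the TA-like difference was 0.0188 (adjusted p = 0.96), so neither the call nor the direction held.

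Both plaque genes peaked in enterocyte-like cells. Tjp1 stood there at 175, 179 and 159 (Fpr2f/f) and 163, 174 and 174 (Fpr2VKO), against 63.1 ± 8.24 in stem-like cells, its lowest class on the TMM scale (without it, Paneth-like cells were lower, at 34.4 ± 3.86 against 79.8 ± 9.64 CPM). The log2 difference was 1.43 ± 0.08 (adjusted p = 1.8e-26). Cgn had 130 ± 9.08 in enterocyte-like, 53.9 ± 6.10 in stem-like and 33.3 ± 10.3 in enteroendocrine-like cells, a log2 difference from stem-like cells of 1.27 ± 0.08 and -0.76 ± 0.12 (edgeR adjusted p = 5.9e-24 and 2.3e-08). The 2 genes parted in enteroendocrine-like cells, where Tjp1 was higher than in stem-like cells by 0.84 ± 0.09 (adjusted p = 1.4e-12).

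E-cadherin transcripts were highest in goblet-like cells, at 618 ± 27.8 against 293 ± 21.9 in stem-like and 293 ± 12.5 in TA-like cells, a log2 difference from stem-like cells of 1.08 ± 0.08 (edgeR adjusted p = 1.4e-20). The goblet-like range did not overlap with that of enterocyte-like cells (421 ± 13.8), the next class. Epcam, the sort marker, was high in most classes: enterocyte-like (1424 ± 63.6), goblet-like (1418 ± 102), tuft-like (1315 ± 165), TA-like (1054 ± 68.0), stem-like (1047 ± 76.9) and Paneth-like cells (1036 ± 120) overlapped from one to the next. Enteroendocrine-like cells stood below these at 621 ± 107, with a log2 difference from stem-like cells of -0.75 ± 0.08 (edgeR adjusted p = 1.9e-13). Without TMM scaling Paneth-like cells were lowest, at 312 ± 90.9 against 922 ± 132 CPM in enteroendocrine-like cells.

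The counts of calls were read against the share of all 13559 genes called. In enterocyte-like cells 8 of the 10 genes were higher and 1 lower than in stem-like cells, where 34.1% and 33.2% of all genes were called. In goblet-like cells 9 were higher and 1 lower (32.6% and 33.4% of all genes). In enteroendocrine-like cells 3 were higher and 7 lower (34.6% and 31.5%). In TA-like cells 4 were higher and 2 lower (19.1% and 18.3%), and in tuft-like cells 3 and 3 (17.7% and 25.8%). The median log2 difference of the 10 genes was 0.68 in enterocyte-like, 0.79 in goblet-like and -0.57 in enteroendocrine-like cells, and that of all genes -0.01, 0.01 and 0.07. Clusters came from other genes of the same cells, so these counts describe the classes.

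Directions in Paneth-like cells depended on the scaling. Alpha-defensin genes and Lyz1 took 50.6% ± 2.49 of the UMIs of Paneth-like cells (SD, n = 6) and 0.0556% ± 0.0285 in stem-like cells, and scaling by total UMIs moved the median log2 difference of all genes to -2.10. On the TMM scale 6 of the 10 genes were higher and 1 lower than in stem-like cells (33.4% and 33.1% of all genes), and by total UMIs 1 was higher and 9 lower (5.33% and 81.2%). Cldn4 was higher and Cldn2 lower on both scales, while Cldn3 (1.10 and -1.01), Ocln (1.06 and -1.06), Tjp1 (0.94 and -1.21), Cdh1 (0.47 and -1.64) and Cldn15 (0.21 and -1.92) changed sign. In the other classes, of the calls on the TMM scale that of Cdh1 in enteroendocrine-like cells changed sign (-0.21 and 0.02), and those of Epcam in enterocyte-like and of Epcam and Cldn7 in goblet-like cells were lost.

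**Figure D2:**
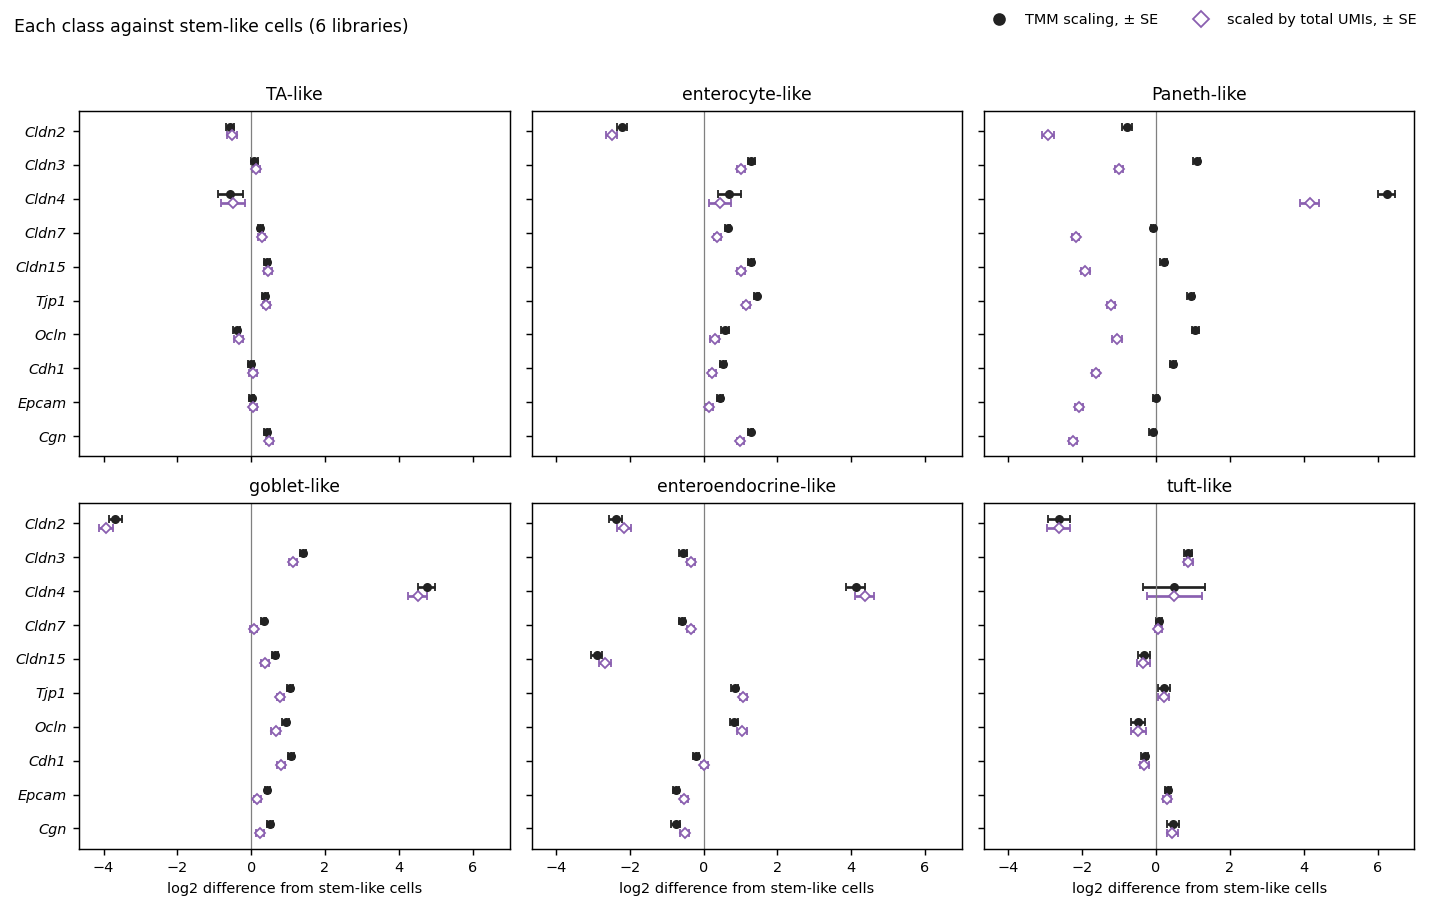
Log2 difference of each class from stem-like cells (x axis) for the 10 genes (y axis), with SE from 6 libraries; black circles are on the TMM scale and open purple diamonds scaled by total UMIs. The scales lie farthest apart in Paneth-like cells, where only Cldn2 (-0.79 and -2.92) and Cldn4 (6.24 and 4.16) were called in the same direction on both.

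Among the UMIs of the 5 claudins, the makeup differed by class, and this measure does not depend on the scaling. Cldn4 took 35.9% ± 2.26 of them in Paneth-like, 21.1% ± 3.26 in enteroendocrine-like and 14.2% ± 1.52 in goblet-like cells, and 0.537% ± 0.106 to 1.16% ± 0.941 in the other named classes (SD, n = 6). Cldn2 took 13.1% ± 1.70 in stem-like and 0.649% ± 0.237 in goblet-like cells. Cldn7 took 52.2% ± 4.16 in stem-like and 26.8% ± 2.36 in Paneth-like cells. The shares of a class add up to a fixed total, so a larger share of Cldn4 lowers the others. The level of Cldn7 itself differed from stem-like cells by -0.08 ± 0.07 on the log2 scale in Paneth-like cells (SE, edgeR adjusted p = 0.32). Scaled by total UMIs, that difference was -2.18. Capture can differ between transcripts, so these shares are comparable between classes and not between genes.

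**Figure D3:**
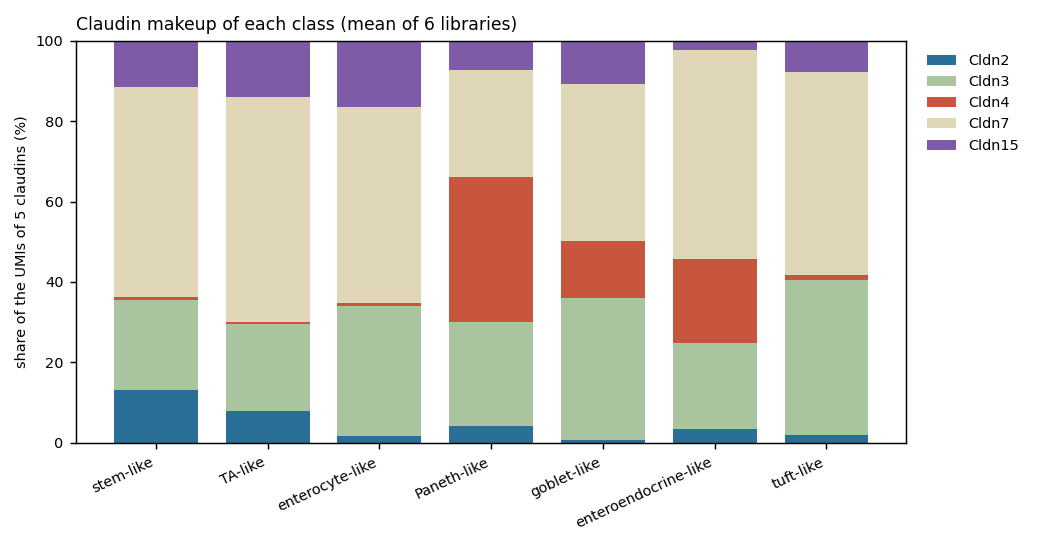
Mean share (%, y axis from 0 to 100) of the UMIs of 5 claudins that each claudin took in the 7 named classes (x axis), averaged over 6 libraries. Cldn4 is visible in Paneth-like (35.9%), enteroendocrine-like (21.1%) and goblet-like cells (14.2%), and Cldn2 is widest in stem-like cells (13.1%).

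The same pattern was seen in single cells at equal depth. After thinning each cell to 2000 UMIs, a UMI of Cldn2 was found in 21.8% ± 4.99 of stem-like and 12.7% ± 2.23 of TA-like cells, against 1.29% ± 0.662 of goblet-like cells (SD, n = 6). A UMI of Cldn4 was found in 27.5% ± 4.51 of Paneth-like, 25.4% ± 3.82 of goblet-like and 24.5% ± 7.75 of enteroendocrine-like cells, and in 2.08% ± 1.58 of stem-like cells. Immune-like cells, which should lack both, had 1.09% ± 1.21 for Cldn2 and 1.77% ± 2.41 for Cldn4, so the stem-like share of Cldn4 and the goblet-like share of Cldn2 are read as background. Paneth-like shares are of cells in which defensins and Lyz1 fill about as many UMIs as all other genes. Epcam was found in 84.3% ± 4.51 to 95.3% ± 4.33 of the cells of 6 classes and in 47.4% ± 9.16 of Paneth-like cells. Without thinning, Cldn2 was found in 83.5% ± 3.67 of stem-like and 6.68% ± 1.79 of goblet-like cells, and Cldn4 in 71.4% ± 8.16 of Paneth-like and 15.5% ± 3.87 of stem-like cells. Before thinning, library medians ran from 23468 to 38271 UMIs in stem-like and from 4014 to 7916 in immune-like cells. Thinning left out 23.4% (Fpr2f/f) and 11.8% (Fpr2VKO) of goblet-like, 11.6% and 2.61% of Paneth-like, 11.1% and 6.67% of enteroendocrine-like, 6.66% and 4.27% of TA-like and 29.2% and 36.7% of tuft-like cells, and 0% and 0.224% of stem-like cells.

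**Figure D4:**
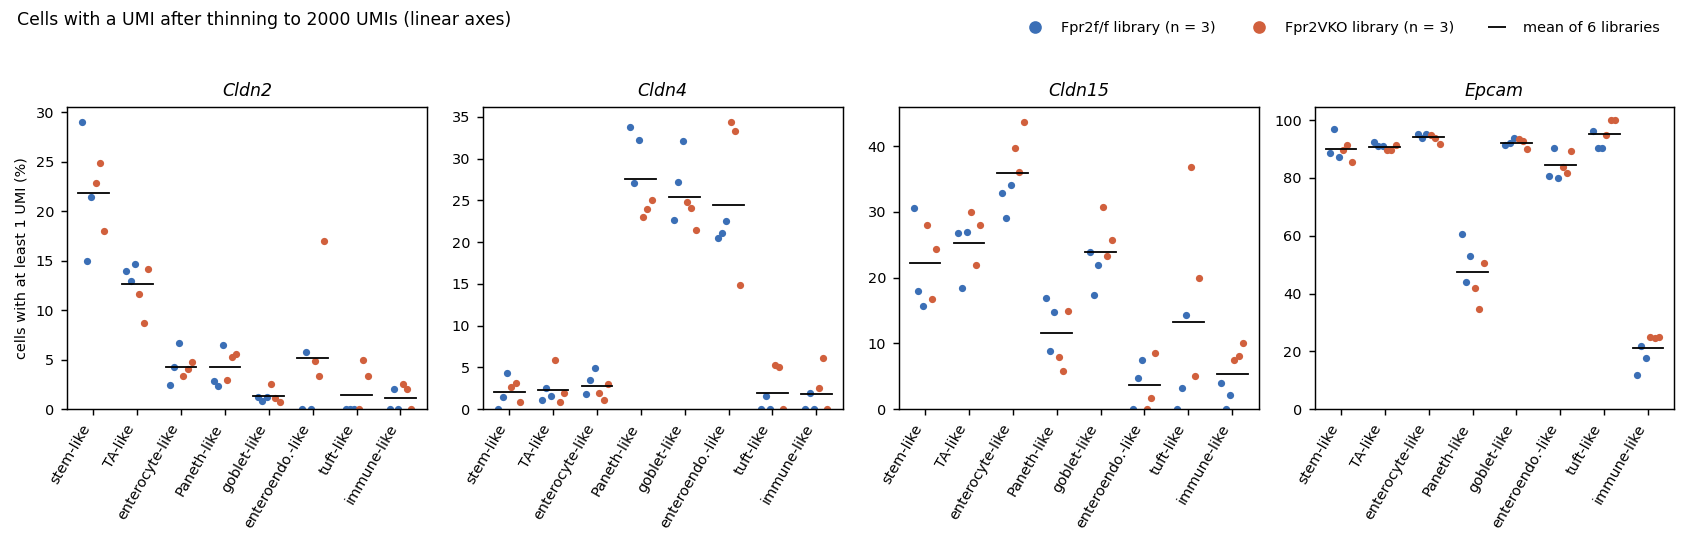
Share of cells (%, y axis from 0) with at least 1 UMI of Cldn2, Cldn4, Cldn15 and Epcam after thinning to 2000 UMIs, by class (x axis) with immune-like cells as background; each point is 1 library and the bar the mean of 6. Cldn2 falls from 21.8% of stem-like cells to 1.29% of goblet-like cells, where immune-like cells have 1.09%.

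For each gene, those with the most similar profile over the 42 sums of a library and class were found by Pearson correlation of log2 levels. The points share libraries and depth, so the values are a description. The profile of Cldn4 was closest to Atf3 (0.93), Fosb (0.93) and Btg2 (0.92) without TMM scaling, and to Jun (0.96), Btg2 (0.96) and Junb (0.96) with it. These are immediate early genes, whose transcripts are known to rise within minutes of stress such as tissue dissociation. Atf3 stood at 1233 ± 108 TMM-scaled CPM in Paneth-like, 645 ± 85.8 in goblet-like and 247 ± 107 in enteroendocrine-like cells, against 51.4 ± 32.3 in stem-like cells (SD, n = 6). The part of dissociation in the level of Cldn4 was not tested.

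The remaining profiles had other neighbours, given here without TMM scaling. That of Cldn2 was closest to Nup37 (0.86), Shmt1 (0.84) and Topbp1 (0.83), that of Cldn15 to Sh2d4a (0.91), Cdc42ep5 (0.90) and Suclg2 (0.90), and that of Tjp1 to Baiap2l2 (0.94), Atp11b (0.93) and Aak1 (0.93). Cdh1 was closest to Ctnna1 (0.97), which encodes alpha-catenin, the protein that links E-cadherin to actin, followed by Hsp90b1 (0.95) and the tight junction gene Lsr (0.94), but none of these was among its nearest on the TMM scale, which were Ssr2 (0.93), Tm9sf2 (0.92) and Ostc (0.92). Cldn7 was closest to Psmb6 (0.98), Micos13 (0.98) and Fau (0.97), Epcam to Pfn1 (0.98), Chmp4b (0.97) and Fau (0.97), Ocln to Sdcbp (0.91), Atrnl1 (0.88) and Eps8 (0.87), and Cgn to Actn4 (0.96), Psmb10 (0.96) and Ndufb10 (0.96). Over all 10 genes, 8 of the 30 pairs were named again with TMM scaling, among them Cldn7 with Psmb6 and Epcam with Pfn1. Between members of the group, on that scale, Cldn7 and Epcam had a correlation of 0.86 and Cldn7 and Cldn4 one of -0.32.

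Other junction genes were read from a list of 58, of which 42 were tested. In enterocyte-like cells 31 were higher and 5 lower than in stem-like cells (34.1% and 33.2% of all genes), among them 7 of 7 desmosome genes higher, and in goblet-like cells 28 and 7 (32.6% and 33.4%). Enteroendocrine-like cells had 12 higher and 18 lower (34.6% and 31.5%), among them 5 of 7 desmosome genes and all 3 tested gap junction genes lower. Tuft-like cells had 15 and 13 (17.7% and 25.8%), and TA-like cells 17 and 8 (19.1% and 18.3%). The balance of these counts depended on the processing in the last 3 of these classes. In TA-like cells 6 were higher and 9 lower at resolution 0.5 (15.5% and 17.3% of all genes), 7 and 9 without alignment (16.3% and 18.7%), and 4 and 0 with the 10% mitochondrial limit (5.69% and 5.67%). In tuft-like cells 12 and 15 were called without alignment (17.5% and 20.6%), 11 and 16 with the 40% limit (19.9% and 30.5%) and 7 and 8 with the 10% limit (9.23% and 14.8%), and enteroendocrine-like cells had 16 and 15 by DESeq2 (39.4% and 27.6%). In Paneth-like cells 20 were higher and 10 lower on the TMM scale (33.4% and 33.1%), and 0 higher and 39 lower by total UMIs (5.33% and 81.2%). Scaled by total UMIs, the counts higher and lower were 21 and 10 in goblet-like (24% and 42.5% of all genes) and 17 and 13 in enteroendocrine-like cells (42% and 24.4%).

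Cldn23, a claudin of the differentiated gut surface, had the largest rise of these in enterocyte-like cells, by 2.77 ± 0.11 on the log2 scale over stem-like cells, as well as in goblet-like cells (2.48 ± 0.12) and TA-like cells (1.14 ± 0.12). Igsf5, encoding a tight junction immunoglobulin protein, was higher by 2.05 ± 0.12 in enterocyte-like cells, as was Cdh17, encoding the intestinal LI-cadherin, by 1.81 ± 0.10. Nectin3 was lower in goblet-like (-2.21 ± 0.08), tuft-like (-1.92 ± 0.15) and Paneth-like cells (-2.58 ± 0.10), and Nectin1 was higher by 2.16 ± 0.14 in goblet-like and 1.77 ± 0.27 in tuft-like cells. Cxadr was higher by 2.00 ± 0.09 in goblet-like cells, and by 1.63 ± 0.09 in Paneth-like cells on the TMM scale but lower there by -0.48 scaled by total UMIs. In enteroendocrine-like cells Pard3, a polarity gene, was higher by 1.10 ± 0.08, and the connexin gene Gjb1 and the desmocollin gene Dsc2 were lower by -2.50 ± 0.25 and -1.65 ± 0.12. Marveld3 and Afdn were higher in tuft-like cells, by 1.93 ± 0.22 and 1.42 ± 0.11. Prkci, a polarity kinase gene, was lower in all 6 classes, from -0.40 ± 0.09 in TA-like to -1.43 ± 0.14 in enteroendocrine-like cells.

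No difference between Fpr2VKO and Fpr2f/f libraries was called for any of the 10 genes. Over all epithelial cells 0 of 10 passed the test (edgeR quasi-likelihood) and 0.0182% of 16523 genes were called. At an unadjusted p under 0.05, 0 of 10 were marked by edgeR or by DESeq2, against 9.02% and 7.26% of all genes. With the 10% mitochondrial limit edgeR marked 3 of 10 (Cldn4, Cldn3 and Cgn, 14% of all genes), and without Fpr2f/f replicate 1 it marked 2 (Cgn and Cldn15, 20.1%). It also marked Cgn with the 40% limit (-0.24 ± 0.11) and Cldn3 without Fpr2f/f replicate 2 (0.31 ± 0.12), at edgeR adjusted p = 0.64 and 0.76 (log2 fold changes with SE). Cgn came closest: it stood at 98.2, 95.7 and 103 CPM (Fpr2f/f) and at 84.6, 84.8 and 82.1 CPM (Fpr2VKO) without TMM scaling. Its libraries did not overlap, which held for 1 of the 10 genes and 13.8% of all genes, and its log2 fold change was -0.20 ± 0.10 (SE, adjusted p = 0.61). In the same libraries the stem markers summed to 944 to 1276 CPM (Fpr2f/f) and 2171 to 2319 CPM (Fpr2VKO). The mean share of enterocyte-like cells, the class highest in Cgn, was 5.24% ± 1.79 (Fpr2f/f) and 8.86% ± 1.66 (Fpr2VKO; SD, n = 3). Within each class, too, the estimate of Cgn was below 0, from -0.12 ± 0.12 in enterocyte-like to -0.39 ± 0.28 in enteroendocrine-like cells (SE). The part of cell makeup in the value of Cgn, which was low in stem-like cells, was not tested.

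For the other genes over all epithelial cells the log2 fold change was 0.22 ± 0.12 for Cldn3, 0.22 ± 0.12 for Cldn15, 0.15 ± 0.14 for Cldn2, -0.08 ± 0.19 for Cldn4, -0.13 ± 0.12 for Cldn7, -0.0032 ± 0.10 for Tjp1, 0.04 ± 0.10 for Ocln, 0.02 ± 0.11 for Cdh1 and -0.06 ± 0.12 for Epcam (SE, edgeR, adjusted p from 0.62 to 0.99). The estimate of Cldn4 was 0.78 ± 0.21 with the 10% mitochondrial limit (adjusted p = 0.13) and ranged from -0.27 to 0.17 on leaving out a library, and that of Cldn3 was 0.43 ± 0.15 with the 10% limit (adjusted p = 0.19). In simulated data of the same libraries, 69% of 2-fold and 90% of 4-fold changes were recovered over all epithelial cells, and 16 unchanged genes were called. In stem-like cells 80% of 2-fold changes were recovered with 15 such false calls, and in Paneth-like cells 59% with 10. The changed genes were drawn at random from all genes kept. Changes as small as the estimates above were not simulated, so the recovery of such changes is not known.

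Within the classes, too, 0 of 10 genes passed the test, in stem-like (0.00955% of all genes called), TA-like (0.043%), enterocyte-like (0.0192%), Paneth-like (0.0539%), goblet-like (0.166%), enteroendocrine-like (0.0225%) and unnamed cells (0.00735%). In tuft-like cells 0 of 8 passed (0.322%), since Cldn2 and Cldn4 did not pass the filter on low counts there. At an unadjusted p under 0.05, edgeR marked 1 gene each in stem-like and enteroendocrine-like cells, 2 each in goblet-like and tuft-like cells and none in the other classes, and DESeq2 marked 1 in goblet-like and 2 in tuft-like cells. Of all genes edgeR marked 5.84% (stem-like), 3.8% (enteroendocrine-like), 8.27% (goblet-like) and 10.8% (tuft-like), and in the classes with none 4.19% (TA-like), 5.24% (enterocyte-like), 7.48% (Paneth-like) and 7.09% (unnamed). By DESeq2 these shares were 4.4% (goblet-like) and 5.36% (tuft-like).

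The genes marked by edgeR were Cldn4 in stem-like cells (0.75 ± 0.35, on 10 to 71 UMIs a library), Cldn15 and Cldn3 in goblet-like cells (0.26 ± 0.12 and 0.24 ± 0.11), Cldn2 in enteroendocrine-like cells (0.89 ± 0.37) and Cldn15 and Ocln in tuft-like cells (1.18 ± 0.42 and 1.26 ± 0.46), all log2 fold changes with SE and edgeR adjusted p from 0.316 to 0.996. In goblet-like cells Cldn15 stood at 134, 130 and 133 (Fpr2f/f) and 185, 148 and 141 (Fpr2VKO) on the TMM scale, with no overlap. The goblet-like cluster led by Zg16 made up 19.9% to 28.1% of goblet-like cells in Fpr2f/f and 30.4% to 41.0% in Fpr2VKO libraries. The other goblet-like clusters overlapped between the groups, and the part of this makeup was not tested. In the same cells all 10 enterocyte markers were found, and they summed to 1039 to 1218 CPM (Fpr2f/f) and 1353 to 1509 CPM (Fpr2VKO). In tuft-like cells Cldn15 stood at 16.3, 44.3 and 67.0 against 145, 77.5 and 67.8, on 3 to 60 UMIs a library. There the 10 enterocyte markers, all found, summed to 908 to 1932 CPM (Fpr2f/f) and 1273 to 11684 CPM (Fpr2VKO), and the stem markers, 7 of 8 found with Gkn3 at 0, to 294 to 409 and 383 to 1369 CPM. In stem-like cells the enterocyte markers summed to 436 to 549 and 608 to 652 CPM. The markers of the classes highest in Cldn4 overlapped there, with Paneth sums of 118 to 703 and 355 to 688 CPM. Goblet sums were 305 to 434 and 301 to 582 CPM. Enteroendocrine sums, with 8 of 9 markers found and Neurod1 at 0, were 9.72 to 13.66 and 13.59 to 17.79 CPM, an overlap only at the edges. In enteroendocrine-like cells the goblet markers, all 8 found, summed to 1230 to 6851 and 433 to 1041 CPM. The stem markers there, those of the class highest in Cldn2, overlapped at 260 to 421 and 247 to 909 CPM, all 8 found. The part of these cells or their RNA in the values was not tested. Without TMM scaling, groups did not overlap for 2 of the 10 genes in goblet-like cells (14% of all genes), 2 in stem-like (10.7%), 2 in enterocyte-like (9.84%), 1 in unnamed (12.4%) and 0 in TA-like (8.57%), Paneth-like (6.64%) and enteroendocrine-like cells (8.86%). In tuft-like cells this held for 3 of the 8 genes with at least 60 UMIs over the libraries (17.1%). The scale matters to these counts: Cldn7 in stem-like and Cgn in enterocyte-like cells overlapped on the TMM scale, and Cldn3 in stem-like cells overlapped without it.

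The difference between the group effects in enterocyte-like and stem-like cells was tested with an interaction term, and 0 of 10 genes passed, with 0 at an unadjusted p under 0.05 (edgeR, 0.00839% of 11913 genes called and 5.81% at that p). The largest estimate was that of Cldn4, at -0.87 ± 0.66 (adjusted p = 0.92), and those of the other genes lay from -0.17 to 0.12. Thinned shares of cells could not have passed a test between the groups, since an exact permutation test (two-sided) of 3 libraries against 3 allows no p below 0.1.

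**Figure D5:**
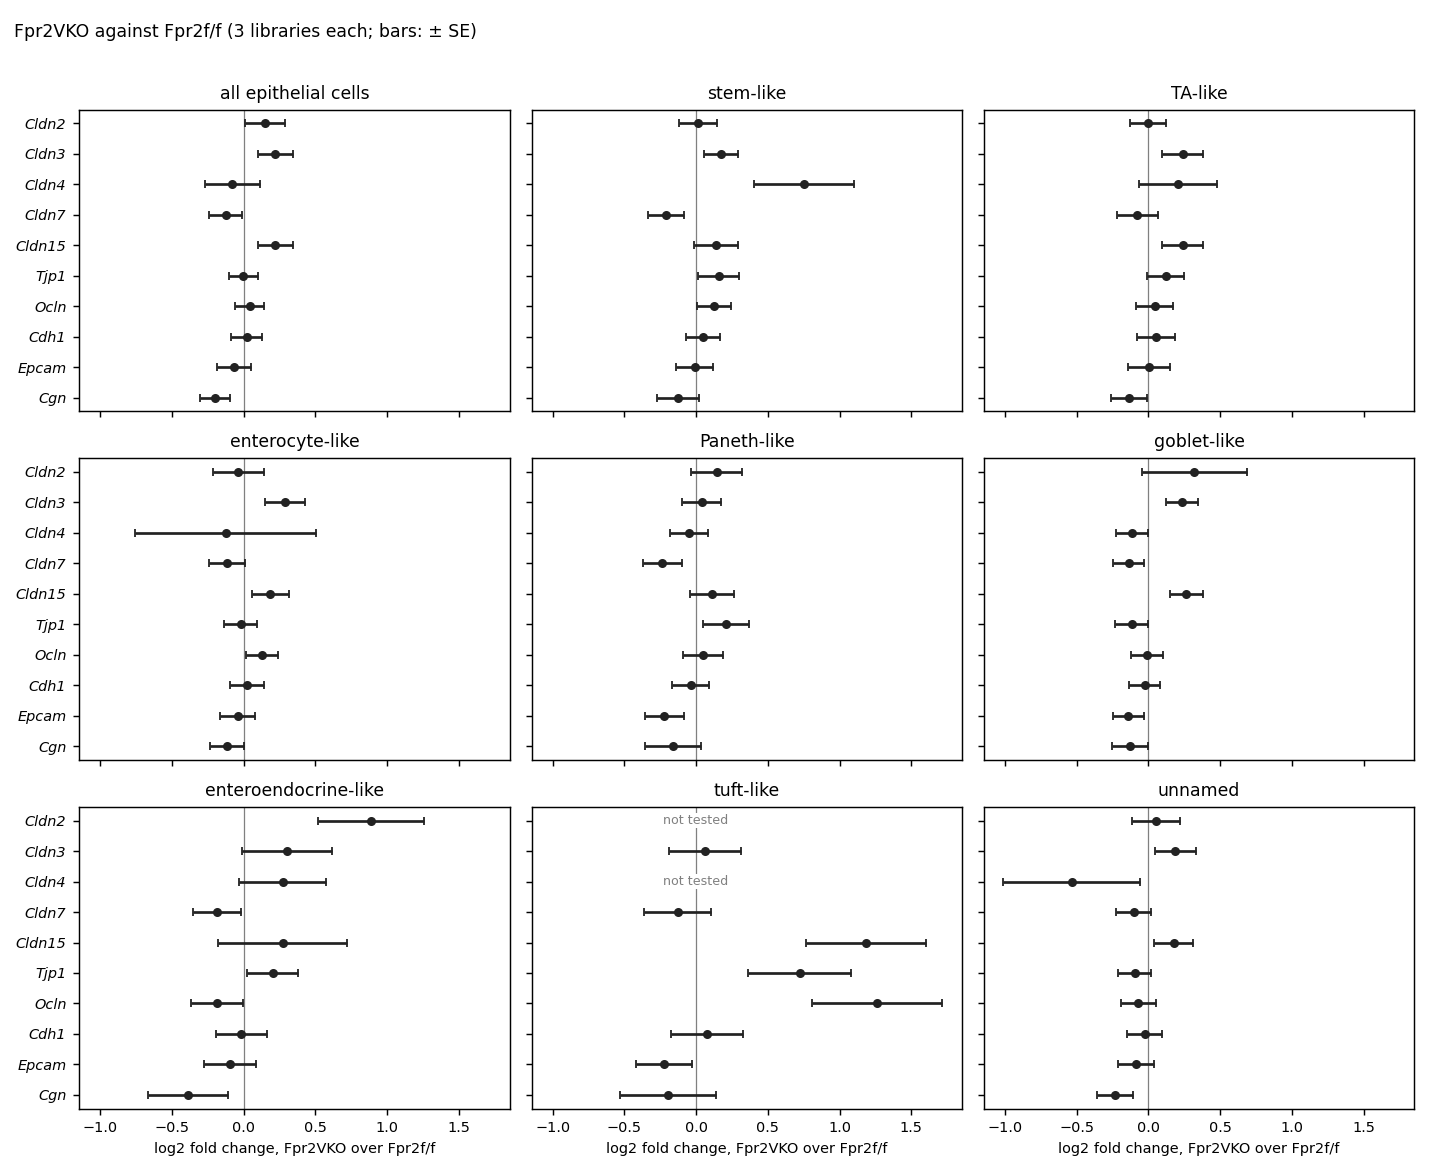
Log2 fold change of Fpr2VKO over Fpr2f/f (x axis) with its SE for the 10 genes (y axis), over all epithelial cells and in 8 classes, from 3 libraries a group. Over all epithelial cells the estimates lie between -0.20 and 0.22, wider bars are seen where few UMIs were counted, and no gene passed the test in any panel.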

How the data were processed

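The authors aligned the reads to mm10 with MobiVision and deposited UMI counts per gene and barcode, without cell calling or normalization; the annotation version was not given in the sources used here. Seurat (4.0 and 4.0.0) is named in the submitters' processing notes for later steps that are not in the counts. Here barcodes with at least 1000 UMIs, at least 500 genes and at most 20% mitochondrial UMIs were kept, and doublets were removed by their share of artificial neighbours (0.8% per 1000 cells). Libraries were aligned by mutual nearest neighbours on 2000 variable genes and 30 components, without the junction genes, and clustered with leidenalg 0.10.2 at resolution 1, which gave 33 clusters. A cluster took a class name from its markers when the mean log2 fold was at least 0.5, with 3 markers detected and 1 among its 10 leading genes; the last condition was added after the leading genes were seen.

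UMIs were summed per library and class and tested with the edgeR 4.0.16 quasi-likelihood test (R 4.3.3, TMM, filterByExpr, robust), Benjamini-Hochberg adjusted over all genes tested at 0.05; classes were set against stem-like cells with the library as a block. DESeq2 1.42.0 was an alternative. Named were the 10 genes, up to 3 higher and 3 lower called genes of the other junction list per class with at least 20 CPM, and the 3 nearest profiles of each gene; those of Cldn3 are not reported here. The genes and lists were chosen with earlier results of these data known. The study states 3 mice per group, the number of libraries, and the labels do not name the animals. In the group comparisons, p-values and SEs measure the spread between libraries. With the library as a block, between classes and for the interaction term, they measure how class differences vary over libraries. The upper limit given for Fpr2 covers counting error only, while each SD includes the spread between libraries. Tests were run on simulated data, with the recovery and the false calls given beside the group estimates.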

Additional observations from a re-analysis of the deposited data

Results flagged for a closer look

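Immune-like cells, which lie outside the comparisons of epithelial cells, held a higher sum of the 10 genes in Fpr2VKO than in Fpr2f/f libraries. The difference was not tested. Summed over the 10 genes, immune-like cells had 140, 344 and 216 CPM in Fpr2f/f (mean 233 ± 103, SD, n = 3) and 399, 635 and 1307 in Fpr2VKO libraries (mean 780 ± 471), without overlap. The value of 1307, in Fpr2VKO replicate 3, came from 20 cells. Taken singly, 6 of the 10 genes did not overlap between the groups, all higher in Fpr2VKO, while Cldn2, Cldn4, Cldn7 and Ocln did not separate. Only 4 of the 10 reached 60 UMIs over the libraries. In these cells 10.7% of the 4961 genes with at least 60 UMIs over the libraries did not overlap between the groups. The sums rested on 22 to 294 UMIs a library. Epithelial marker lists moved with them: in immune-like cells the enterocyte markers summed to 104 to 153 CPM (Fpr2f/f) and 169 to 2252 CPM (Fpr2VKO), and the stem markers to 44.4 to 68.1 and 101 to 138 CPM, without overlap, while the TA, Paneth and goblet marker sums overlapped. The immune markers went the other way, at 52618 to 60019 CPM (Fpr2f/f) and 36678 to 51588 CPM (Fpr2VKO), without overlap. Epcam stood at 99.8 ± 45.8 in Fpr2f/f and 310 ± 187 in Fpr2VKO libraries. In barcodes under 100 UMIs the 10 genes summed to 2064 ± 181 CPM (Fpr2f/f) and 1955 ± 40 CPM (Fpr2VKO), and the part of free RNA in the levels of immune-like cells was not tested.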

How the results depend on the processing

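The count of 0 genes that differed between Fpr2VKO and Fpr2f/f held under all alternatives run, over all epithelial cells and in each class. Deviations of same-number libraries had correlations of 0.0992, 0.138 and 0.506, all above 0, though not every library was closest to its own number. Fpr2f/f replicate 3 and Fpr2VKO replicate 3 had 0.506 with each other and -0.28 to -0.17 with other numbers of the other group. Between numbers 1 and 2 the values were 0.0789 and 0.149. Whether the numbers mark batches was not tested. With the replicate block the count stayed at 0 in every class, and the estimate of Tjp1 was 4.1e-05. Over all epithelial cells, where no gene was called, estimates changed sign with the 10% mitochondrial limit for Cldn2 (-0.10), Cldn4 (0.78) and Tjp1 (0.0371), with the 40% limit for Ocln (-0.10) and Cdh1 (-0.0787), without the low-count filter for Tjp1 (0.0161), and by total UMIs for Ocln (-0.002268) and Cdh1 (-0.0240). Leaving out a library gave -0.27 to 0.17 for Cldn4 (above 0 without Fpr2f/f replicate 2), -0.002298 to 0.0435 for Cdh1 (below 0 without Fpr2VKO replicate 2) and -0.0166 to 0.0221 for Tjp1 (above 0 without Fpr2VKO replicate 1, Fpr2f/f replicate 1 or Fpr2f/f replicate 2).

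Against stem-like cells, 26 of 48 calls were kept under every alternative. In TA-like cells 2 instead of 4 genes were higher with the 40% limit (31.3% instead of 19.1% of all genes), without alignment (16.3%) and at resolution 0.5 (15.5%), and 0 (10% limit, 5.67%) or 6 (40% limit, 31.5%) instead of 2 (18.3%) were lower. In Paneth-like cells 1 instead of 6 was higher and 9 instead of 1 lower by total UMIs (5.33% and 81.2%, instead of 33.4% and 33.1%), and 2 or 3 were lower with the 10% or 40% limit (28.8% or 35.7%). In tuft-like cells 5 (DESeq2, 25.7%) or 1 (no filter, 8.09%) instead of 3 (17.7%) were higher, and 1 (DESeq2, 20.1%) or 6 (40% limit, 30.5%) instead of 3 (25.8%) were lower; leaving out a library gave 1 to 3 lower, with 1 without Fpr2f/f replicate 1 (22.4%), and 2 to 4 higher. Signs changed with the 40% limit in TA-like cells for Cldn7 (-0.17), Cldn15 (-0.15) and Tjp1 (-0.0682) and in Paneth-like cells for Cldn15 (-0.12), and with the 10% limit for Ocln in TA-like (0.0188), Cldn15 in Paneth-like (-0.0812) and Cdh1 in enteroendocrine-like cells (0.0331). By total UMIs they changed in Paneth-like cells for Cldn3 (-1.01), Cldn15 (-1.92), Tjp1 (-1.21), Ocln (-1.06) and Cdh1 (-1.64), and in enteroendocrine-like cells for Cdh1 (0.0209). Of the uncalled differences of Cldn4, that in enterocyte-like cells fell below 0 without alignment (-0.19) and at resolution 0.5 (-0.65), that in TA-like cells rose above 0 with the 40% limit (0.62) and the looser naming rule (0.61), and that in tuft-like cells fell below 0 without alignment (-0.57), without doublet removal (-0.11) and at resolution 0.5 (-0.15). Where the sums differ by cells kept, the cause was not tested. Calls of Cdh1 in enteroendocrine-like and tuft-like, Ocln in tuft-like, Cgn in tuft-like and Cldn15 in Paneth-like cells were also lost without single libraries. Total-UMI scaling and the looser naming rule were chosen after seeing the data. Few UMIs limit Cldn2, Cldn4 and Cldn15 in tuft-like cells.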

Other observations

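Unnamed and small clusters, given here as values of all their cells without TMM scaling, showed Cldn4 outside the named secretory classes. The cluster of 39 enterocyte-like cells, led by Clca4a, Ada and Apoa4, held 445 CPM of Cldn4, 4540 of Epcam and 1178 of Cldn7, where the enterocyte-like clusters of 615, 239 and 173 cells held 4.42, 8.49 and 26.8 of Cldn4. An unnamed cluster of 1063 cells led by Areg, with Edn1 and Apob among its leading genes, held 222 of Cldn4. Cells of a cluster led by Dll1 and Atoh1, early secretory genes, held 23.6, and those of a cluster led by Neurog3, the gene of enteroendocrine progenitors, held 83.9. Among the Paneth-like clusters Cldn4 ranged from 130 to 350.

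Cldn2 stood at 127 and 139 CPM in the 2 stem-like clusters, at 99.2 in the TA-like cluster led by Cdk1 and at 62.7 in that led by Top2a, at 78.6 in an unnamed cluster led by Mcm4 and Mcm6, genes of DNA replication, and at 56.8 and 86.2 in 2 unnamed clusters of 1062 and 387 cells led by the bile acid binding gene Fabp6. In the enterocyte-like cluster led by Fabp1 it stood at 6.51.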
